A study of Mus musculus with 6 samples.

Results

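The 9 genes compared here encode enzymes of the glutamate-glutamine cycle (Glul, Gls2, Glud1, Got1 and Got2) and carriers that move glutamine across the plasma membrane (Slc38a1, Slc38a2, Slc38a3 and Slc38a5). They were taken by their symbols from the 54532 genes of the deposited table, and all 9 were found once. Their levels were measured by RNA-seq of hippocampal tissue in 3 libraries of wild-type mice (WT1 to WT3) and 3 libraries of TG mice (TG1 to TG3). TG mice carry the changes G82R and L85P in Slc1a2, the gene of the astrocytic glutamate transporter GLT-1. The changes were introduced by CRISPR/Cas9 in fertilized C57BL/6N eggs and passed through the germline, so they are not limited to a cell type. The controls of the study were wild-type littermates without the edit. Neither the age nor the zygosity of the sequenced mice is given in the sources used here, and it is not stated whether a library holds 1 animal, so p-values measure the spread between these libraries. The question was whether the RNA of the genes that handle glutamate after its uptake differed between TG and WT mice.

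Glutamate released at synapses is taken up by astrocytes, mainly through GLT-1. Glutamine synthetase (Glul), an astrocytic enzyme in the brain, joins it with ammonia to glutamine, which leaves astrocytes through system N carriers such as Slc38a3 and enters neurons through system A carriers such as Slc38a1 and Slc38a2. Glutaminases turn glutamine back into glutamate, and part of the glutamate is burned after conversion to 2-oxoglutarate by glutamate dehydrogenase (Glud1) or by the aspartate aminotransferases (Got1 in the cytosol and Got2 in mitochondria).

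The recovered reads on genes numbered 16081281 to 18751057 per library, and 3 reads on a gene of 1 kb corresponded to an FPKM (fragments per kilobase of gene, scaled to library size) of 0.160 to 0.190. For Slc1a2 itself, WT1, WT2 and WT3 had an FPKM of 202, 199.5 and 177 and TG1, TG2 and TG3 one of 222, 207 and 217, all above the WT libraries (unadjusted p = 0.102 in limma). This level does not check the labels, since the edit changes bases and FPKM do not hold them. The hippocampal genes Prox1 (granule cells), Wfs1 and Neurod6 (pyramidal cells) were present in every library, at no less than 9.81, 30.8 and 71.5 FPKM. Xist was at no more than 0.0181 FPKM and the Y-linked gene Ddx3y at no less than 10.6 FPKM in all 6 libraries. TG1 and TG2 stood apart by genes of the choroid plexus, the secretory epithelium of the ventricles. The summed FPKM of 18 such markers was 86.9 to 115.5 in WT libraries, 1359 in TG1, 4245 in TG2 and 96.2 in TG3, and none of the 18 was at 0 in all libraries. In TG1, the median of 10 oligodendrocyte markers lay 0.66 below the WT mean on the log2 scale. Markers of meningeal fibroblasts also varied, in both groups. The summed FPKM of 9 of them was 603, 240 and 205 in WT1, WT2 and WT3. It was 446, 279 and 488 in TG1, TG2 and TG3. The part of meningeal RNA in the values below was not tested.

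None of the 9 genes differed between TG and WT mice at an adjusted p under 0.05 in limma, where 2 of the 20952 genes tested (0.00955%) did, 1 higher (0.00477%) and 1 lower (0.00477%). The adjusted p-values of the 9 genes lay between 0.786 and 0.995. At an unadjusted p under 0.05, 1 of the 9 genes was higher in TG mice, Slc38a2, and none was lower. Over all genes tested, 5.91% had an unadjusted p under 0.05, with 3.13% higher and 2.78% lower. The TG and WT values overlapped in 8 of the 9 genes and lay apart in Slc38a2, whereas they lay apart in 12.1% of all genes tested, with TG above WT in 6.35% and below in 5.71%. Against this background, 1 gene of 9 (11.1%) is no result about the group as a whole. The log2 fold changes had a median of -0.0051 over the 9 genes and of -0.0020 over all genes tested. For 8 of the 9 genes the 95% interval of the fold change stayed within 1.5-fold in either direction, and for Glul, Glud1, Got1 and Got2 it stayed within 1.25-fold. The only interval that reached further was that of Slc38a3, up to 1.70-fold.

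**Figure D1:**
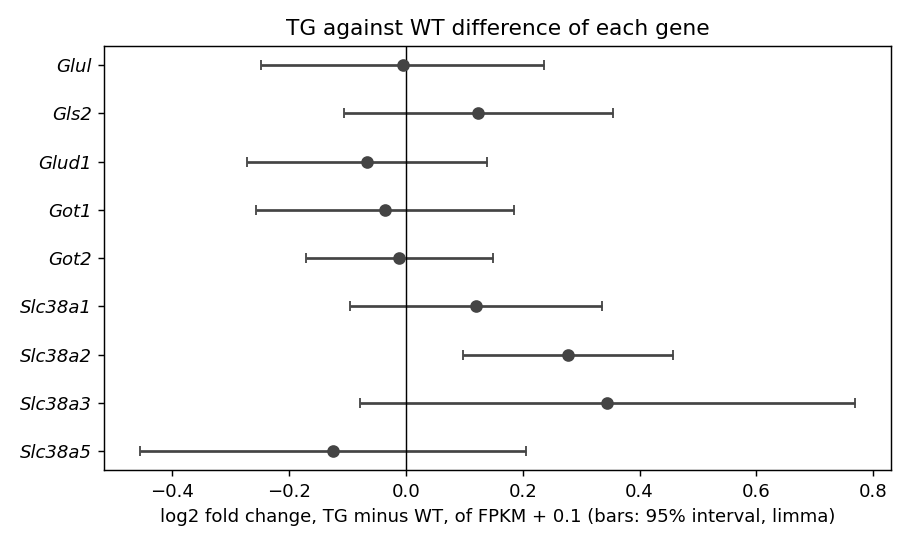
Log2 fold change of FPKM + 0.1, TG minus WT (x axis), of each of the 9 genes (y axis) with its 95% interval from limma as bars, 3 libraries per group. The interval of Slc38a2 lies between 0.099 and 0.46 and those of the other 8 genes cross 0.

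The genes fell into 2 ranges of level. Per length, the enzymes Glul, Got1, Glud1 and Got2 had a mean FPKM of 469, 140.2, 75.1 and 50.8 in WT mice, and Glul was higher than 99.8% of the genes tested. The carriers and Gls2 lay between 3.30 and 13.5 FPKM in WT mice. The order from high to low was Glul, Got1, Glud1, Got2, Slc38a2, Slc38a1, Slc38a3, Gls2 and Slc38a5. Of the 8 pairs of neighbours in this order, 7 did not overlap over the 6 libraries. The ranges of Slc38a1 (8.89 to 11.1 FPKM) and Slc38a3 (7.59 to 14.0 FPKM) overlapped, and Slc38a3 was the higher of this pair in TG2 alone.

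**Figure D2:**
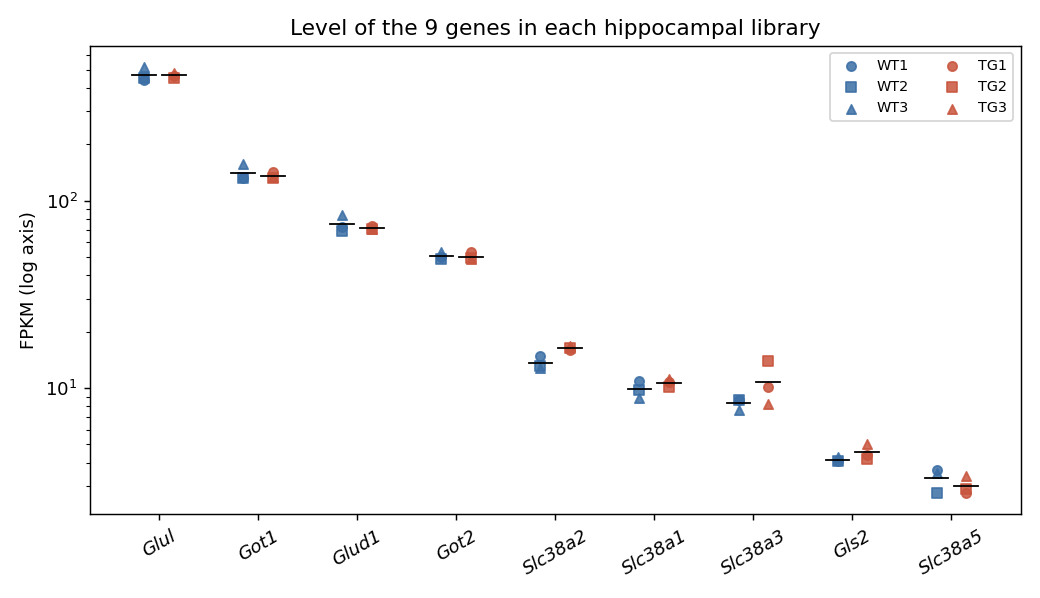
FPKM on a log axis (y axis) of the 9 genes (x axis) in WT libraries (blue) and TG libraries (red), with the group mean as a black line and the replicate number as the marker shape. Glul lies at 439.6 to 516 FPKM in all libraries, and Slc38a2 is the gene whose red points all lie above its blue points.

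Glul (ENSMUSG00000026473, GRCm38 chromosome 1 from 153899944 to 153909723, plus strand) encodes glutamine synthetase, the enzyme that makes glutamine from the glutamate taken up by astrocytes. WT1, WT2 and WT3 had an FPKM of 439.6, 452 and 516, and TG1, TG2 and TG3 had 464, 453 and 482, on 24259 to 32092 reads per library. All 3 TG values fell inside the WT range. The WT mean was 469 ± 40.9 and the TG mean 466 ± 14.6 (SD, n = 3 each). The fold change was 0.996, with a 95% interval of 0.842 to 1.18 (limma, adjusted p = 0.995). Its sign changed when libraries were scaled to the same sum, though not to the same upper quartile, and when some were left out. No direction can thus be given. Other genes share 12.6% of the 50-base stretches of Glul transcripts, above all the pseudogene Glns-ps1, which had at most 26 reads in a library. Teddm2 overlaps Glul on the other strand, and since the strand of the reads is not stated, reads in the overlap cannot be told apart.

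Glud1 (ENSMUSG00000021794, chromosome 14 from 34310727 to 34345265, plus strand) encodes mitochondrial glutamate dehydrogenase, which releases ammonia from glutamate. Its FPKM was 72.6, 68.8 and 84.0 in the WT libraries, in the order of their numbers, and 73.5, 70.4 and 70.7 in TG libraries. The TG values lay close together within the WT range, and the fold change was 0.955 (95% interval 0.829 to 1.10). Other genes share 6.49% of its 50-base stretches, among them Glud-ps with 18 to 30 reads. The cytosolic aspartate aminotransferase Got1 (ENSMUSG00000025190, chromosome 19 from 43499752 to 43524605, minus strand) had an FPKM of 131.7, 131.5 and 157 in WT libraries and 142.7, 131.6 and 134.6 in TG libraries. Again the TG values fell inside the WT range, with a fold change of 0.975 (95% interval 0.837 to 1.14). Its mitochondrial counterpart Got2 (ENSMUSG00000031672, chromosome 8 from 95864134 to 95888547, minus strand) had an FPKM of 50.2, 48.9 and 53.2 in WT libraries and 53.0, 49.5 and 48.7 in TG libraries. The groups overlapped and the fold change was 0.992 (95% interval 0.888 to 1.11). The Got2 value is less certain in level, since 25.6% of its 50-base stretches are shared with other genes, among them Got2-ps1 with 12 to 29 reads and Gm10874 with at most 2 reads in a library, and Gm45760 overlaps it on the other strand. The ratio of Got1 to Got2 FPKM within a library, which no scaling of libraries can change, had a WT mean of 2.76 ± 0.177 and a TG mean of 2.71 ± 0.0541 (SD, n = 3 each, two-sided exact permutation p = 0.9).

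Gls2 (ENSMUSG00000044005, chromosome 10 from 128194457 to 128210004, plus strand) encodes the liver-type glutaminase. It was the lowest of the 5 enzymes, with an FPKM of 4.09, 4.08 and 4.29 in WT libraries and 4.42, 4.19 and 5.04 in TG libraries, on 229 to 316 reads. TG1 and TG3 lay above all WT libraries and TG2 lay among them. The fold change was 1.09 (95% interval 0.929 to 1.28, unadjusted p = 0.246 in limma). Without TG3, the library with the highest value, the log2 fold change was 0.050 in place of 0.12, and with the choroid plexus score as a covariate it was 0.28 (unadjusted p = 0.0709 in limma). Spryd4 overlaps Gls2 on the other strand and shares 1.28% of its 50-base stretches.

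The enzymes with high levels had their highest value in the same library, WT3. In WT3, Glul, Glud1, Got1 and Got2 lay 0.14, 0.17, 0.17 and 0.068 above the WT mean on the log2 scale. Of all genes tested, 25.1% were highest in WT3. The carriers Slc38a1, Slc38a2 and Slc38a3 had the opposite order, with their lowest value in WT3, as 25.4% of all genes did. Gls2 and Slc38a5 had neither their highest nor their lowest value there, and these groupings were made after the values were seen. Among the lists of related genes, WT3 was the highest library for 13 of 17 tricarboxylic acid cycle genes, 3 of 5 genes of the malate-aspartate shuttle, 6 of 14 of the amino acid response, 6 of 23 of other glutamate and glutamine metabolism and 2 of 13 of glutamate release, uptake and the GABA branch. It was the lowest library for 5 of 6 other Slc38 carriers, 8 of 12 other carriers of glutamine and neutral amino acids, 8 of 23 genes of other glutamate and glutamine metabolism and 4 of 13 of the release, uptake and GABA list. The lists thus did not all divide into enzymes high and carriers low in WT3, and no test of such a division was run. Without WT3, the log2 fold changes of Glul, Glud1, Got1 and Got2 were all above 0, at 0.065, 0.017, 0.050 and 0.022, in place of -0.0051, -0.066, -0.036 and -0.012 with all libraries. Leaving out WT3 was thus enough to turn the sign of all 4 enzymes. With every library scaled to the same sum (TPM), the log2 fold changes were 0.030, -0.031, -0.00086 and 0.023 in the same order. With scaling to the same upper quartile they were -0.012, -0.073, -0.043 and -0.018. The part of the library scale in the WT3 values was not tested further.

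**Figure D3:**
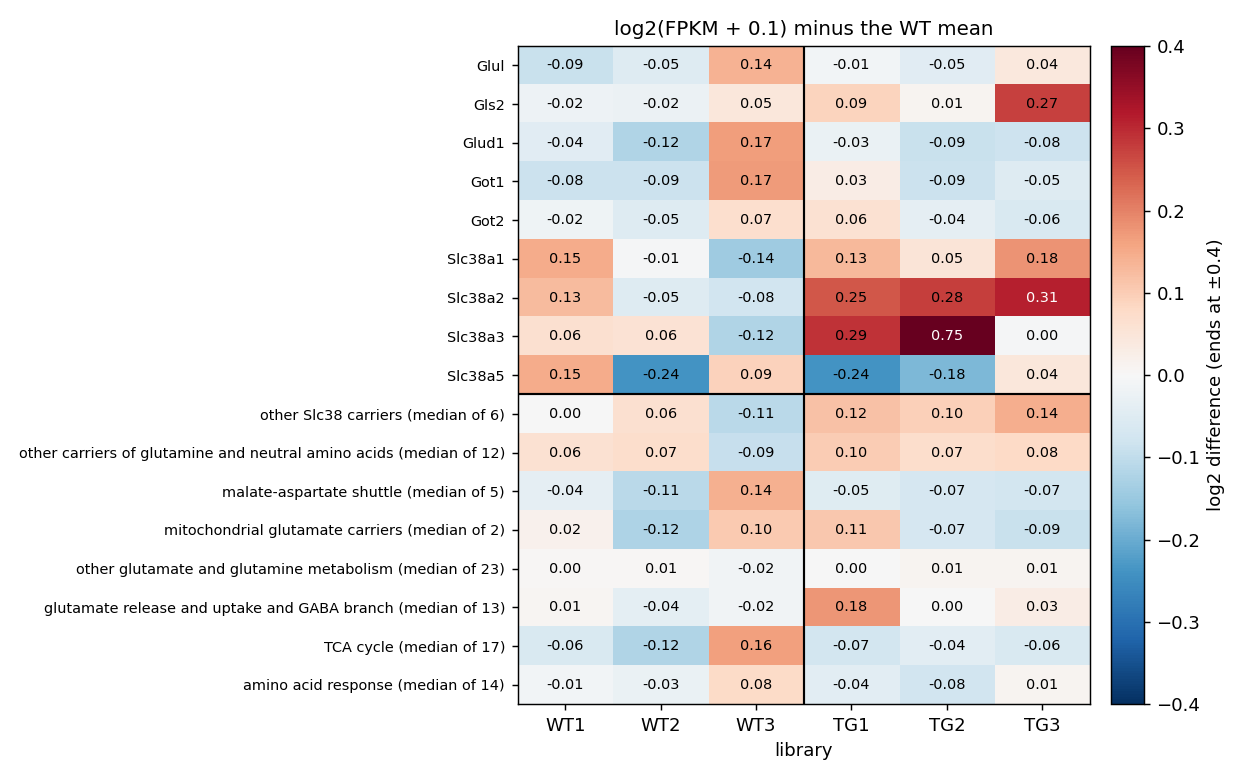
Log2(FPKM + 0.1) minus the WT mean (colour and printed value) of the 9 genes and, under the line, the median of each list of related genes, in WT1 to WT3 and TG1 to TG3 (columns). In WT3, Glul, Glud1 and Got1 are at 0.14 to 0.17 and Slc38a1 and Slc38a3 are at -0.14 and -0.12, while Slc38a2 is at 0.25 to 0.31 in the TG columns.

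The stretches upstream of the transcription start are shown for Glul, Got1 and Slc38a2. Glul and Got1 held matches of the motif printed in capitals, and Slc38a2 was the gene whose groups lay apart. RefSeq promoter sequence (GRCm38.p6) was at hand for 6 of the 9 genes. In the 250 bases before the RefSeq start, CCAAT, the core of a common promoter box, was searched on both strands and is printed in capitals, as CCAAT or as its reverse complement.
Glul, chr1:153899679-153899928, plus strand: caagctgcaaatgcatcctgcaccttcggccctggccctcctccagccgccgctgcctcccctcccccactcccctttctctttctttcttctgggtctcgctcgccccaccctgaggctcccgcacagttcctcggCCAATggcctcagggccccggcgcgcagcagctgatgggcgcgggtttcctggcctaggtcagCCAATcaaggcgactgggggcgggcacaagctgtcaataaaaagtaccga
Got1, chr19:43524606-43524855, minus strand: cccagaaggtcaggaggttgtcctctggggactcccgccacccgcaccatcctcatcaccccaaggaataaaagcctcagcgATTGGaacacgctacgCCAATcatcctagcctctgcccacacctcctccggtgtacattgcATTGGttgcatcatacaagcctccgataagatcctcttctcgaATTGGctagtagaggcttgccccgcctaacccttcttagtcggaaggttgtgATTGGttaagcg
Slc38a2, chr15:96699729-96699978, minus strand: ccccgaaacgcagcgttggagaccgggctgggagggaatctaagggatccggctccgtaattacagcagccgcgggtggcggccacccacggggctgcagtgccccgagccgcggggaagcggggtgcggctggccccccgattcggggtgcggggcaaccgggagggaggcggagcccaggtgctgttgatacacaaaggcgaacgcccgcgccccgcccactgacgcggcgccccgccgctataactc
The window of Got1 held 5 matches and that of Glul 2, and none was found in those of Glud1, Got2, Slc38a2 and Slc38a5. Of 32851 promoter windows of this length, 33.8% held at least 1 match and 70 (0.213%) held 5 or more. GGGCGG was found 3 times in Glud1 and once each in Glul, Slc38a2 and Slc38a5, and in 32.7% of all windows, while TATAAA was found in Got2 alone and in 12.4% of all windows. TGACGTCA and TGATGNAAT, the core of elements that respond to cyclic AMP and to amino acid shortage, were in none of the 6 windows and in 1.55% and 0.816% of all windows. No match overlapped a CCAAT match. These are matches of letters, and no factor binding was measured. Only these windows were searched, so elements elsewhere in or near the genes would have been missed.

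Slc38a2 (ENSMUSG00000022462, chromosome 15 from 96687392 to 96699730, minus strand) encodes SNAT2, a system A carrier that takes up glutamine and other small neutral amino acids. WT1, WT2 and WT3 had an FPKM of 14.7, 13.0 and 12.8, and TG1, TG2 and TG3 had 16.1, 16.4 and 16.8, on 1862 to 2678 reads per library. The lowest TG library, TG1, was above the highest WT library, WT1, and the TG values lay closer together than the WT values. Counting alone gives a coefficient of variation of 2.08%, beside 2.22% in TG and 7.80% in WT libraries. The TG spread was thus about that of counting. The WT mean was 13.5 ± 1.06 and the TG mean 16.4 ± 0.364 (SD, n = 3 each). The fold change was 1.21 with a 95% interval of 1.07 to 1.37, a log2 fold change of 0.28 (standard error 0.0763, unadjusted p = 0.00776 in limma). After Benjamini-Hochberg adjustment over all genes the adjusted p was 0.786, so the difference did not pass the test, and a two-sided exact permutation test gave p = 0.1, the smallest that 3 against 3 libraries allow. Leaving out each library in turn gave log2 fold changes of 0.24 to 0.34. None of its 50-base stretches is shared with another gene. The choroid plexus markers were high in TG1 and TG2, and their part in the Slc38a2 difference was not tested beyond the following fits. With their score as a covariate the log2 fold change was 0.29 (unadjusted p = 0.0527 in limma). With TG3 as the only TG library it was 0.31. These fits are not separate checks, since TG3 alone of the TG libraries had a score within the WT range.

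Slc38a1 (ENSMUSG00000023169, chromosome 15 from 96571418 to 96642913, minus strand) encodes SNAT1, a system A carrier of neurons, and lies 44.5 kb from Slc38a2 on the same strand. It had an FPKM of 10.9, 9.78 and 8.89 in WT libraries and 10.7, 10.2 and 11.1 in TG libraries. WT1 lay among the TG values, so the groups overlapped, with a fold change of 1.09 (95% interval 0.936 to 1.26, unadjusted p = 0.232 in limma). The ratio of Slc38a2 to Slc38a1 FPKM within a library, chosen after the values were seen, was 1.35, 1.33 and 1.44 in WT libraries and 1.49, 1.61 and 1.51 in TG libraries. These ratios did not overlap either (two-sided exact permutation p = 0.1, again the smallest possible, and 0.7 after Benjamini-Hochberg adjustment over the 7 ratios compared). Leaving out each library in turn gave log2 fold changes of Slc38a1 from 0.049, without WT3, to 0.19, without WT1, in place of 0.12. Slc38a1 shares 4.23% of its 50-base stretches with other genes. Slc38a4, a further gene of the family 295 kb beyond Slc38a2, was at 0.118 to 0.317 FPKM on 9 to 25 reads.

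**Figure D4:**
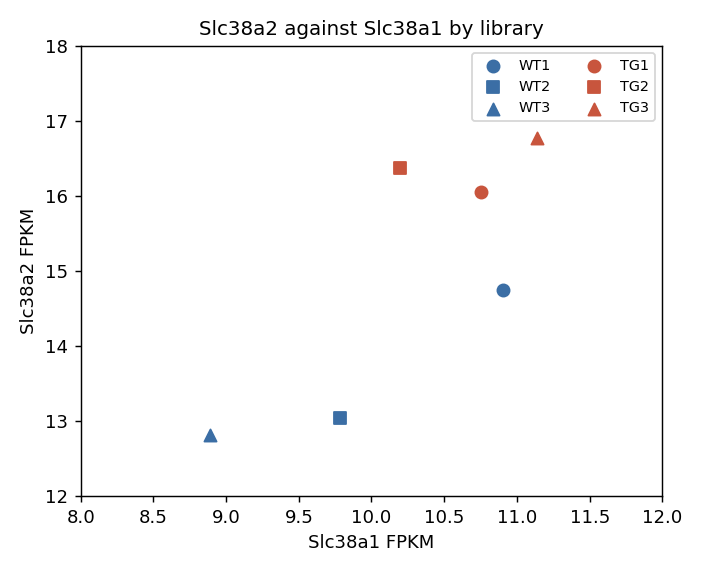
FPKM of Slc38a2 (y axis, from 12 to 18) against Slc38a1 (x axis, from 8 to 12) in each WT library (blue) and TG library (red), with the replicate number as the marker shape. The TG libraries lie at 16.1 to 16.8 FPKM of Slc38a2 and the WT libraries at 12.8 to 14.7, and on the x axis WT1 alone of the WT libraries lies among the TG libraries.

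Slc38a3 (ENSMUSG00000010064, chromosome 9 from 107650634 to 107669530, minus strand) encodes SNAT3, the system N carrier through which astrocytes release glutamine. WT1, WT2 and WT3 had an FPKM of 8.64, 8.60 and 7.59, and TG1, TG2 and TG3 had 10.1, 14.0 and 8.24, on 733 to 1322 reads. TG1 and TG2 lay above all WT libraries and TG3 lay among them. The fold change was 1.27, with the widest interval of the 9 genes (0.947 to 1.70, unadjusted p = 0.0963 in limma). Its order over the TG libraries was that of the choroid plexus markers, whose summed FPKM is given above, and 18 of 18 of these markers had a positive log2 fold change. Of the 18 markers, 11 had an unadjusted p under 0.05 in limma, beside 5.91% of all genes tested, and none an adjusted p under 0.05. The part of choroid plexus RNA in the Slc38a3 values was not tested beyond the following fits. With the score of the choroid plexus markers as a covariate, the log2 fold change of Slc38a3 was -0.070 in place of 0.34 (unadjusted p = 0.619 in limma). That fit too compares the groups largely through TG3. Without TG2 it was 0.14, without TG3 it was 0.52 (unadjusted p = 0.0197 in limma), and without both TG1 and TG2, which leaves TG3 alone against 3 WT libraries, it was -0.0045. None of the 50-base stretches of Slc38a3 is shared with another gene. The summed FPKM of 15 astrocyte markers overlapped between the groups, at 926 to 1063 in WT libraries and 918 to 962 in TG libraries. In tissue, fewer cells of a type and less RNA per cell cannot be told apart.

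**Figure D5:**
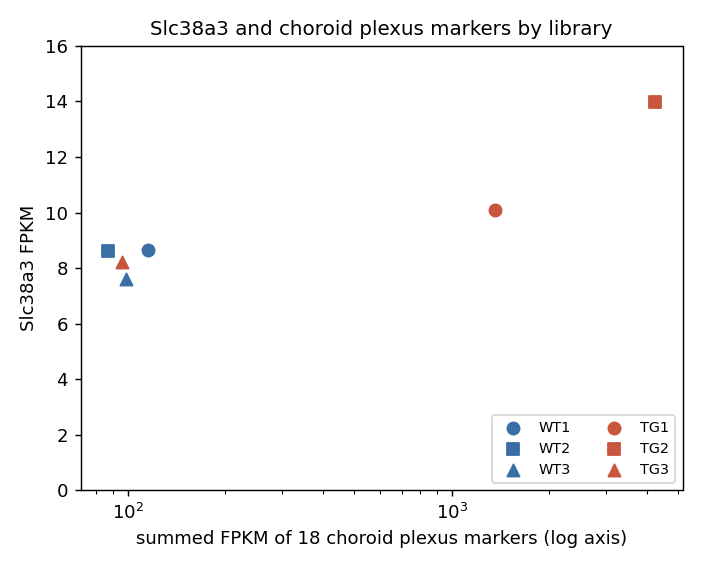
FPKM of Slc38a3 (y axis, from 0) against the summed FPKM of 18 choroid plexus markers (x axis, log) in each WT library (blue) and TG library (red), with the replicate number as the marker shape. TG2 has both the highest marker sum and 14.0 FPKM of Slc38a3, TG1 follows, and TG3 lies with the WT libraries.

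Slc38a5 (ENSMUSG00000031170, chromosome X from 8271133 to 8280179, plus strand) encodes SNAT5, another system N carrier. It was the lowest of the 9 genes, with an FPKM of 3.64, 2.76 and 3.50 in WT libraries and 2.76, 2.89 and 3.38 in TG libraries. The groups overlapped over nearly their whole range, and the fold change was 0.917 (95% interval 0.729 to 1.15, unadjusted p = 0.405 in limma). It rests on 98 to 151 reads per library, for which counting alone gives a coefficient of variation of 8.95%, beside 14.3% in WT and 10.9% in TG libraries. Counting error was smaller for the abundant enzymes, at 0.605% for Glul beside 8.72% in WT and 3.12% in TG libraries. With the choroid plexus score as a covariate, a fit that rests largely on TG3, the log2 fold change of Slc38a5 was 0.0088 in place of -0.12. Leaving out 1 library gave values from -0.24, without WT2, to -0.051, without WT1, and it was also over 1.5 times nearer to 0 without WT3 (-0.078) or TG1 (-0.067) and further from 0 without TG3 (-0.21).

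Genes that work beside the 9 were compared on 8 lists with 91 genes, of which 90 were tested and Slc38a8 was too low. None had an adjusted p under 0.05 in limma (smallest 0.786). At an unadjusted p under 0.05, 1 was higher and 2 were lower, which is 3.33% of the genes beside the background of 5.91%, and the groups did not overlap in 10% of them beside 12.1%. The higher gene was Gpt2, the mitochondrial alanine aminotransferase, which makes glutamate and pyruvate from alanine and 2-oxoglutarate in a reversible reaction. It had an FPKM of 13.0, 14.3 and 13.1 in WT libraries and 16.2, 14.8 and 15.9 in TG libraries (log2 fold change 0.21, unadjusted p = 0.0218). The lower genes were Psat1 and Chac1, both among the 14 genes of the amino acid response list described below. Psat1, an aminotransferase of serine synthesis that uses glutamate, had an FPKM of 29.2, 28.8 and 31.0 in WT libraries and 24.9, 26.7 and 27.7 in TG libraries (log2 fold change -0.17, unadjusted p = 0.0465). Chac1, which breaks down glutathione, had an FPKM of 5.15, 4.77 and 4.50 in WT libraries and 4.05, 3.54 and 4.36 in TG libraries (log2 fold change -0.27, unadjusted p = 0.0424 in limma).

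The other carriers had medians slightly above 0. Of all genes tested, 10398 of 20952 had a positive log2 fold change. The 6 other Slc38 genes tested had a median log2 fold change of 0.11 (0.085 without WT3), and 5 of 6 were positive. The most abundant and the one with the smallest p was Slc38a10, with an FPKM of 11.2, 11.8 and 10.7 in WT libraries and 13.0, 12.6 and 12.1 in TG libraries, which did not overlap (unadjusted p = 0.0648 in limma). The 12 carriers of glutamine and neutral amino acids outside the Slc38 family had a median of 0.098, and 10 of 12 were positive. This median was 0.041 without WT3. It was 0.043 with the choroid plexus score as a covariate, a fit that compares the groups largely through TG3. Among these Slc7a10, an astrocytic carrier of serine and glycine, had the smallest p (9.30 ± 0.819 FPKM in WT and 11.5 ± 2.41 in TG libraries, SD, n = 3 each, unadjusted p = 0.0968 in limma). Its highest value, 14.2 FPKM, was in TG2, the library with the most choroid plexus RNA, and the part of that RNA in it was not tested. Slc6a17, the most abundant, had 53.2 ± 6.57 and 59.5 ± 6.51 FPKM (SD, n = 3 each), with overlapping groups.

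The medians of the metabolic lists lay within 0.1 of 0. The 5 genes that complete the malate-aspartate shuttle with Got1 and Got2 had a median log2 fold change of -0.073. The most abundant was the cytosolic malate dehydrogenase Mdh1, at 234, 211 and 306 FPKM in WT libraries and 232, 226 and 235 in TG libraries, and the smallest p was that of the carrier Slc25a11 (unadjusted p = 0.225 in limma). WT3 was again the high library for Mdh1, and without it the median of the shuttle genes was -0.0024, whereas without WT2 it was -0.13. The 17 tricarboxylic acid cycle genes had a median of -0.050, with Idh3g, a subunit of isocitrate dehydrogenase, at 39.2 ± 5.60 FPKM in WT and 33.3 ± 1.15 in TG libraries (SD, n = 3 each, unadjusted p = 0.0659 in limma). The median of the tricarboxylic acid cycle genes was 0.0061 without WT3, -0.080 without WT1 and -0.096 without WT2, so its sign rested on WT3. The 2 mitochondrial glutamate carriers, Slc25a22 and Slc25a18, had log2 fold changes of -0.045 and 0.014. The other 23 genes of glutamate and glutamine metabolism had a median of 0.018, and Oat, ornithine aminotransferase and the most abundant of them, had a log2 fold change of -0.0066. The 13 genes of glutamate release, uptake and the GABA branch, Slc1a2 included, had a median of 0.063, and the most abundant of them, the vesicular carrier Slc17a7, had 274 ± 31.9 and 292 ± 26.4 FPKM (SD, n = 3 each). The 14 genes of the amino acid response, a programme that also contains Slc38a2 as a known target, had a median of -0.024, and their most abundant gene and central factor Atf4 had an FPKM of 47.0, 44.2 and 61.1 in WT libraries and 47.1, 49.3 and 50.7 in TG libraries.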

How the data were processed

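Hippocampal RNA was sequenced in 3 WT and 3 TG libraries. The authors counted reads per gene with HTSeq 0.6.0 and deposited FPKM, scaled to gene length and library size, 1 column per library. The aligner is not given in the sources used here, and the labels name GRCm38 and mm10. Of the gene identifiers, 54409 were found in a GRCm38 annotation (GENCODE M21) and 53499 had the same start and end. Kits differ between the sources (Trizol and NEBNext in the methods, RNeasy and SMARTer in the labels). Strand and the treatment of reads that match several genes were not stated, so genes with pseudogene copies are uncertain. Multiplied by gene length, 100% of the FPKM values were whole multiples of 1 step per library (tolerance 0.05 reads), from which the reads were recovered. Reads have no molecular identifiers, so depth limits cover counting only.

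Log2(FPKM + 0.1) of the 20952 genes that reached a mean of 0.1 FPKM was compared between groups by limma 3.58.1 under R 4.3.3. The fit used lmFit and eBayes with a trend and no covariate, with Benjamini-Hochberg adjustment over all of these genes. It was first run on simulated counts, where all genes had the same extra spread and libraries differed by depth and group alone. That run does not measure error rates in these data. The added 0.1 shrinks the fold changes of weakly expressed genes. Single ratios were compared by exact permutation. The members, lists, marker genes and alternatives were chosen with earlier results of these data known. Named besides the members were, in each list, the gene with the smallest p, the most abundant gene and any gene with an unadjusted p under 0.05, and for each member the 2 genes most alike. Results of some genes that this rule names are not reported here. Alternatives covered the pseudocount, filter, scaling, variance model, voom on the recovered reads, biotype, replicate block, choroid plexus covariate and each left-out library, and leaving out TG1 and TG2 together was added after seeing the data. Sequence shared with other genes was counted over all 50-base stretches of the GENCODE transcripts of a member. Scripts also ran in Python 3.11.15 with matplotlib 3.10.9.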

Additional observations from a re-analysis of the deposited data

How the results depend on the processing

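No member had an adjusted p under 0.05 under any of the 18 alternatives, and none of the pathway genes had. Of the 162 fold changes of members under alternatives, 147 kept their direction and 15 reversed. With TPM scaling, Glul was at 0.030 and Got2 at 0.023 (log2 fold change). With the choroid plexus score as a covariate, Glul was at 0.059, Slc38a3 at -0.070 and Slc38a5 at 0.0088. Without TG1 and TG2 together these genes were at 0.043, -0.0045 and 0.044. Both settings rest largely on TG3 for the TG side and are not separate checks. Leaving out each library in turn gave -0.050 to 0.065 for Glul, -0.13 to 0.017 for Glud1, -0.079 to 0.050 for Got1, -0.048 to 0.022 for Got2, 0.050 to 0.18 for Gls2, 0.049 to 0.19 for Slc38a1, 0.24 to 0.34 for Slc38a2, 0.14 to 0.52 for Slc38a3 and -0.24 to -0.051 for Slc38a5. Slc38a2 kept its direction in all alternatives, with unadjusted p-values of 0.00254 to 0.0652 and adjusted p-values of 0.612 to 0.999.

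The number of members at an unadjusted p under 0.05 was 1, and it was 0 with the choroid plexus covariate and without TG1 and TG2 together, 2 with the replicate block, and 1 to 2 with each library left out, where Slc38a3 (limma, unadjusted p = 0.0197) joined Slc38a2 without TG3. The labels do not say whether the replicate numbers pair the libraries. The deviations of same-numbered libraries from their group means correlated at 0.0125, 0.0434 and 0.00314 over genes. Those of libraries with different numbers correlated at -0.0274 to 0.0159. These values show no strong pairing, but with 3 libraries per group they cannot exclude one. In the fit with this block, Slc38a3 had an unadjusted p of 0.0441, no gene of the table had an adjusted p under 0.05 (1244 had an unadjusted p under 0.05), and 1 pathway gene had an unadjusted p under 0.05. The number of pathway genes at an unadjusted p under 0.05 was 3. It was 1 with TPM scaling or the choroid plexus covariate, 0 without a variance trend or without TG1 and TG2 together, and 1 to 10 with each library left out, with 10 without WT2 and 1 without WT1 or TG1. Over all genes, 2 had an adjusted p under 0.05. There were 9 without a variance trend, 1 with a mean FPKM of at least 1, and 0 with a pseudocount of 0.01 or 1, no filter, voom, protein-coding genes, the choroid plexus covariate, and without TG1 and TG2 together (702 to 1543 at an unadjusted p under 0.05), and 0 to 6 with each library left out, with 6 without TG1. The causes of these changes were not tested. Counting error was below the spread between libraries in both groups for 8 members, and for Gls2 (6.14%) it was above the WT spread (2.81%). Reads as well as libraries thus limit Gls2 and, in TG libraries, Slc38a5 (8.95% beside 10.9%) and Slc38a2 (2.08% beside 2.22%).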

Other observations

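The levels of the glutamine-making and glutamate-taking steps were compared within libraries, where scaling has no effect. The ratio of Glul to Slc1a2 FPKM was 2.17, 2.26 and 2.91 in WT libraries and 2.09, 2.19 and 2.22 in TG libraries, with overlapping groups (two-sided exact permutation test, p = 0.3, and 0.7 after Benjamini-Hochberg adjustment over the 7 ratios compared). The ratio of Glul to Glud1 was 6.06, 6.57 and 6.14 in WT libraries and 6.31, 6.44 and 6.82 in TG libraries (p = 0.3, exact permutation test). WT3 was the highest library in the ratio of Glul to Slc1a2 and not in that of Glul to Glud1. The ratio of Slc38a3 to Slc38a1 was 0.793 to 0.879 in WT libraries and 0.940, 1.37 and 0.740 in TG libraries, so the TG libraries lay on both sides of the WT range.

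Among 13324 other genes whose mean FPKM reached 1, those whose log2 level was most alike over the 6 libraries differed from member to member. With so few libraries and so many genes, high correlations are found for any gene, so they are given as a description. For Slc38a3 the gene most alike was Sostdc1 (Pearson r = 0.9938), one of the 18 choroid plexus markers, at 1.17 to 1.97 FPKM in WT libraries and at 4.54, 15.1 and 1.49 FPKM in TG1, TG2 and TG3, followed by Lrp10 (r = 0.9929). For Glud1 they were Scamp1 (r = 0.9959) and Sdha (r = 0.9959), a subunit of succinate dehydrogenase. For Got1 they were Fbxo2 (r = 0.9993) and Rbm12 (r = 0.9978), and Fbxo2 shared the high value in WT3, at 114 FPKM beside 87.6 to 98.7 in the other libraries. For Slc38a2 they were Nfatc2 (r = 0.9905) and H2-Q6 (r = 0.9876), for Slc38a1 E330009J07Rik (r = 0.9929) and Cnnm3 (r = 0.9919), and for Glul Purg (r = 0.9878) and Thg1l (r = 0.9836). For Gls2 they were Ccdc9 (r = 0.9805) and Rassf3 (r = 0.9705), for Got2 Gm11613 (r = 0.9877) and Nub1 (r = 0.9822), and for Slc38a5 Gm12411 (r = 0.9981) and Ptn (r = 0.9908).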
